A study of Homo sapiens with 8 samples.

Results

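The comparison described here set circPRE2 cells carrying a NORAD guide against parental cells carrying the same guide, over every gene with at least 0.5 RPKM (read number relative to the length of the gene and the size of the library) in at least 2 of the 8 libraries. That rule kept 11585 of the 19411 genes in the deposited table, and it did not use the difference between the groups. All libraries came from HCT116, a human colorectal carcinoma line, modified for CRISPR interference (CRISPRi), in which a Cas9 that cannot cut DNA is led to a promoter and silences the gene there. There were 4 groups of 2 poly(A) RNA libraries: circPRE2 sgNORAD (CRISPRi genotype circPRE2, NORAD guide), circPRE8 sgNORAD (CRISPRi genotype circPRE8, NORAD guide), parental sgNORAD (CRISPRi parental genotype, NORAD guide) and parental sgControl (CRISPRi parental genotype, control guide). The comparison therefore has the guide in both groups and differs by the line. What the circPRE2 and circPRE8 lines carry, and whether each is 1 clone or a pool, is not described in the labels, and the names are used only as names. The labels do not say whether the 2 libraries of a group came from separate cultures, so p-values measure only the spread between these libraries, which may be technical.

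NORAD is a long noncoding RNA that binds PUMILIO proteins such as PUM2 through repeated copies of a short motif. PUMILIO proteins bind the same motif in the 3′ UTRs of messenger RNAs, recruit the CCR4-NOT deadenylase complex and lower the level of those messages. Loss of NORAD has been linked to chromosome instability in HCT116 cells. NORAD had no entry among the 19411 genes of the deposited table, so the silencing could not be checked in any library.

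The motif TGTANATA (N any base, searched on the transcript strand only) was looked for in the 3′ UTR of 1 GENCODE 29 transcript per gene, since this is the element that NORAD and messenger RNAs share. The sites of SEMA3A, EML1, SLC7A11, EMP1 and CRLS1 are shown because these genes carried it among the 15 rises and 15 falls named as largest. Those were taken from genes past the significance threshold with groups not overlapping and a mean of at least 1 RPKM in the higher group. Sequences are 5′ to 3′ on the transcript (hg38, all within annotated 3′ UTRs), with the motif in capitals.
SEMA3A site 1, chr7:83959019-83959048, minus strand: tcaaagaaaatTGTAGATAtaacttgcaga
SEMA3A site 2, chr7:83958654-83958683, minus strand: caaaaaaaagaTGTAAATAatttgggagaa
SEMA3A site 3, chr7:83957149-83957178, minus strand: aacctgtgcctTGTATATAccttttattgt
SEMA3A site 4, chr7:83955920-83955949, minus strand: aacactatactTGTATATAcaatgtttatt
EML1 site 1, chr14:99940440-99940469, plus strand: ttttaaaacatTGTATATAatcttcactgt
SLC7A11 site 1, chr4:138171585-138171614, minus strand: tgagatttttcTGTATATAtgggttttgta
SLC7A11 site 2, chr4:138170791-138170820, minus strand: agaaatgtcgcTGTAAATAagatttacaac
SLC7A11 site 3, chr4:138170256-138170285, minus strand: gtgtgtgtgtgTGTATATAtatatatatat
SLC7A11 site 4, chr4:138164143-138164172, minus strand: ataaccattttTGTACATAttttacttgaa
EMP1 site 1, chr12:13216699-13216728, plus strand: tatactataatTGTAAATAttttgatacaa
CRLS1 site 1, chr20:6037933-6037962, plus strand: ttcatattttaTGTAAATAatatcaagctg
A match describes the letters only and is not evidence of binding.

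The libraries were of similar size except 1. The size used in the deposited scaling, read from the steps of low values, was 46.25 and 50.28 M (megareads) in circPRE2 sgNORAD, 44.65 and 49.27 M in circPRE8 sgNORAD, 28.39 and 45.7 M in parental sgNORAD, and 42.57 and 44.87 M in parental sgControl. Parental sgNORAD replicate 1, the smallest library, also had 4.01% of its summed RPKM in the 4 mitochondrially encoded genes listed, against 6.45% to 8.69% in the other 7. Colon epithelial markers KRT8, KRT18, KRT19 and EPCAM were high in all libraries, while CDX1, VIL1, CEACAM5, LGALS4 and GPA33 were at or below 0.0881 RPKM in all of them. In circPRE2 sgNORAD and parental sgNORAD no blood-defining PTPRC or endothelial PECAM1 exceeded 0.0273 RPKM. Among the other blood and endothelial markers below the filter, the highest value in these groups was 0.137 RPKM, of VWF.

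With limma and Benjamini-Hochberg adjustment over all genes tested, 1257 genes (10.9%) were higher and 916 (7.91%) were lower in circPRE2 sgNORAD than in parental sgNORAD at an adjusted p under 0.05, so that 18.8% were called either way. The shares of 10.9% and 7.91% are the background for the counts of every gene list below. Most changes were small. The median called fold was 1.22 for the rises and 1.15 for the falls, and 88.4% of the rises and 96.4% of the falls were within 1.5-fold. Over 2-fold there were 34 rises (0.293%) and 5 falls (0.0432%), and 19 rises (0.164%) and 4 falls (0.0345%) passed a test against a log2 change of 0.5. The 2 groups did not overlap, with circPRE2 above, in 31.9% of genes and, with circPRE2 below, in 28.2%. The median log2 change of all genes was 0.006. Rises made up 57.8% of the calls as deposited and 45.6% with size factors from the median of ratios (1086 higher, 1297 lower), so the balance of rises and falls depends on the scaling. Without circPRE2 sgNORAD replicate 1 the counts were 479 higher and 239 lower, without circPRE2 sgNORAD replicate 2 they were 735 and 490, and without parental sgNORAD replicate 1 they were 1034 and 402.

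**Figure D1:**
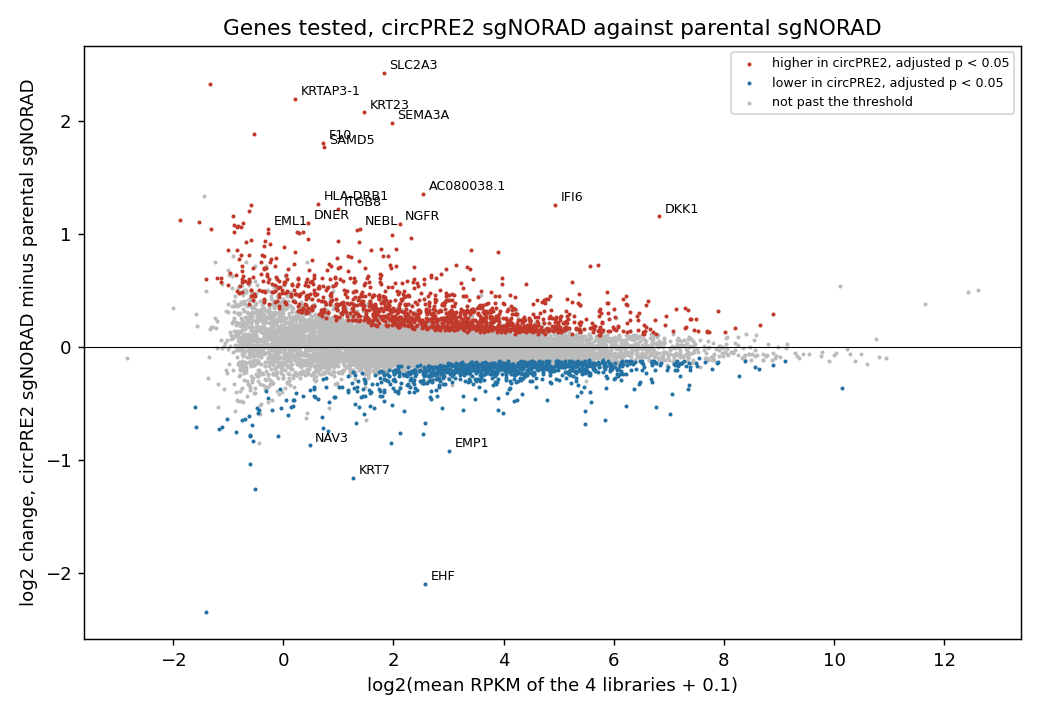
Log2 change of each tested gene (vertical axis, circPRE2 sgNORAD minus parental sgNORAD, on the log2(RPKM + 0.1) scale) against log2 of its mean RPKM over the 4 libraries plus 0.1 (horizontal axis). Red and blue points are the 1257 higher and 916 lower genes, grey points did not pass, and most coloured points lie close to 0 while SLC2A3 (2.43) and EHF (-2.10) stand far from it.

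The largest rise was that of a glucose transporter gene. SLC2A3 (ENSG00000059804.16, chromosome 12, 7919230 to 7936275, minus strand), which encodes the high-affinity glucose transporter GLUT3, had 5.8 and 5.93 RPKM in circPRE2 sgNORAD libraries, against 1.04 and 0.977 RPKM in parental sgNORAD libraries. The circPRE2 values were several times the parental ones, and the spread within each pair was small beside the gap. The log2 change was 2.43 (SE 0.07, 95% interval 2.27 to 2.58; 5.38-fold, limma adjusted p = 3.55e-09). SLC2A3 also had 6.47 and 6.33 RPKM in circPRE8 sgNORAD libraries, and the log2 difference between circPRE2 and circPRE8 was -0.12 (95% interval -0.28 to 0.03). In parental sgControl libraries it had 1.71 and 1.55 RPKM.

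The ubiquitous glucose transporter gene SLC2A1 had 65.2 and 65.9 RPKM in circPRE2 sgNORAD and 40.9 and 38.3 RPKM in parental sgNORAD, a rise of 0.73 on the log2 scale (SE 0.04, adjusted p = 1.06e-06). It was higher still in circPRE8 sgNORAD, at 111 RPKM in both libraries. The glycolytic enzyme genes ALDOC (log2 change 0.57), ENO2 (0.45) and HK1 (0.17) rose as well, while the hexokinase gene HK2 fell, with 9.42 and 9.25 RPKM in circPRE2 sgNORAD against 13 and 12.7 RPKM in parental sgNORAD (log2 change -0.46, adjusted p = 0.000354). The 23 tested genes of glucose transport and glycolysis held 5 rises and 1 fall, with 17 not past the threshold and a median log2 change of 0.01; the falls were 2 without parental sgNORAD replicate 2 or either parental sgControl library, and 4 with median-of-ratios or upper quartile factors. Of 13 HIF and hypoxia targets, 5 rose and 2 fell, the rises led by the collagen prolyl hydroxylase gene P4HA2 (0.45) and the lipase inhibitor gene ANGPTL4 (0.39) and the falls by the secreted glycoprotein gene STC2 (-0.43). The HIF list's rise count was 3 and its fall count 1 without circPRE2 sgNORAD replicate 1, and ANGPTL4 then no longer passed (adjusted p = 0.0782). HK1 lost its call without the same library (adjusted p = 0.204) and without parental sgNORAD replicate 2 (0.0939). Among 5 glucose-regulated arrestins and MondoA genes, ARRDC3 alone passed and was lower (-0.32; adjusted p = 0.0995 without circPRE2 sgNORAD replicate 1).

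SEMA3A (ENSG00000075213, chromosome 7, 83955777 to 84492724, minus strand), a secreted semaphorin that repels axons, had 6.48 and 5.85 RPKM in circPRE2 sgNORAD, against 1.43 and 1.53 RPKM in parental sgNORAD. The pairs lay far apart, with a log2 change of 1.99 (SE 0.07; 3.96-fold, adjusted p = 1.93e-08). Its level in circPRE8 sgNORAD was 6.55 and 7.11 RPKM, and in parental sgControl 1.54 and 1.55 RPKM. The laminin-related guidance ligand gene NTN1 had 4.26 and 4.48 RPKM in circPRE2 sgNORAD and 2.42 and 2.48 RPKM in parental sgNORAD (log2 change 0.81, adjusted p = 1.76e-05). The receptor side moved less and in both directions: NRP1, a co-receptor for SEMA3A, had 0.925 and 1.08 RPKM in circPRE2 sgNORAD against 1.49 and 1.28 RPKM in parental sgNORAD (log2 change -0.43, adjusted p = 0.0116), while plexin PLXNA3 (0.28) and PLXNB1 (0.30) rose. The ephrin gene EFNA5 fell (-0.65) and the ephrin receptor genes EPHB6 (0.41), EPHB3 (0.35) and EPHA2 (0.21) rose. Of 34 semaphorins, ephrins and their receptors, 13 rose, 2 fell and 19 did not pass, with a median of 0.12. The 13 rises became 5 without circPRE2 sgNORAD replicate 1, 8 without circPRE2 sgNORAD replicate 2 and 7 without parental sgNORAD replicate 1, and the 2 falls became 1 without circPRE2 sgNORAD replicate 1 or parental sgNORAD replicate 1. When circPRE2 sgNORAD replicate 1 was left out, NRP1 (adjusted p = 0.116), PLXNA3 (0.0878), PLXNB1 (0.119) and EPHA2 (0.0661) did not pass. NRP1 (0.0732), PLXNA3 (0.06), PLXNB1 (0.107) and EPHB6 (0.0508) did not pass without parental sgNORAD replicate 1, nor EPHB3 (0.0758) and EPHB6 (0.0609) without circPRE2 sgNORAD replicate 2.

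**Figure D2:**
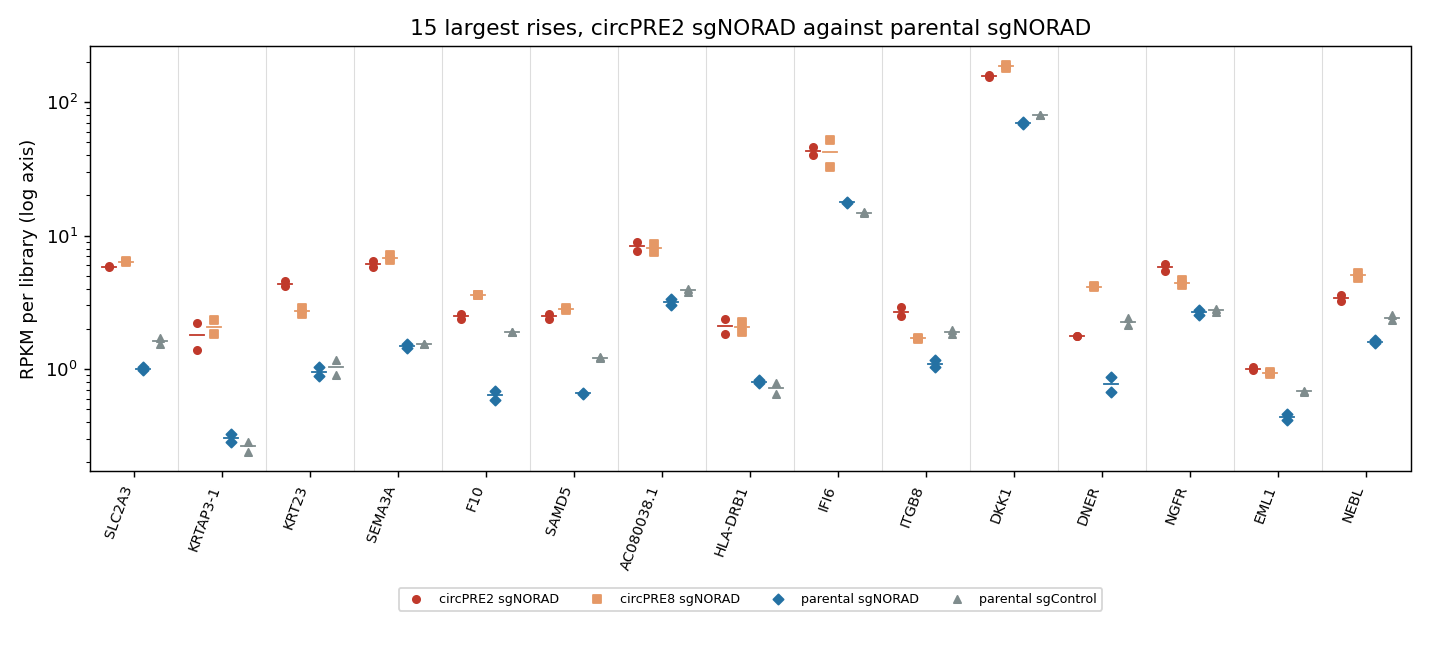
RPKM per library on a log axis for 15 genes, with 1 point per library and a short line at the mean of the 2 libraries. These are the largest rises among called genes with groups not overlapping and a mean of at least 1 RPKM in the higher group. Groups run from circPRE2 sgNORAD through circPRE8 sgNORAD and parental sgNORAD to parental sgControl. Every circPRE2 point lies above every parental sgNORAD point of its gene, which the choice of genes required, and IFI6 shows both circPRE8 libraries apart at 32.9 and 52.3 RPKM.

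KRT23, a type I keratin, had 4.57 and 4.17 RPKM in circPRE2 sgNORAD against 1.03 and 0.882 RPKM in parental sgNORAD (log2 change 2.08). KRTAP3-1, a hair keratin-associated protein whose gene lies near KRT23 on chromosome 17, had 2.22 and 1.4 RPKM in circPRE2 sgNORAD against 0.286 and 0.326 RPKM in parental sgNORAD (2.20). In both, the lower circPRE2 library exceeded the higher parental one by several-fold. NGFR, a receptor for neurotrophins, had 6.09 and 5.48 RPKM in circPRE2 sgNORAD and 2.79 and 2.53 RPKM in parental sgNORAD (1.09, adjusted p = 5.89e-06). EML1, which binds microtubules, rose by 1.05 to about 1 RPKM, and NEBL, an actin-binding nebulin relative, rose by 1.05 with 3.61 and 3.25 RPKM in circPRE2 sgNORAD against 1.64 and 1.58 RPKM in parental sgNORAD. SAMD5 rose by 1.77, with 2.58 and 2.39 RPKM in circPRE2 sgNORAD against 0.655 and 0.661 RPKM in parental sgNORAD. Parental sgControl lay between these groups for SAMD5 (1.21 and 1.23 RPKM), NEBL (2.54 and 2.32 RPKM) and EML1 (0.689 and 0.671 RPKM). It lay near parental sgNORAD for KRT23 (0.907 and 1.17 RPKM), KRTAP3-1 (0.286 and 0.241 RPKM) and NGFR (2.83 and 2.69 RPKM). The gene listed as AC080038.1, whose identifier (ENSG00000011028) is named MRC2 in the reference annotation, encodes an endocytic collagen receptor and rose by 1.36.

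The integrin genes, which encode receptors for the extracellular matrix, rose more often than they fell: there were 6 rises and 1 fall among 11, with 4 not past the threshold and a median of 0.18. Fewer integrin rises passed without circPRE2 sgNORAD replicate 1, parental sgNORAD replicate 2 or either circPRE8 library, and more without parental sgNORAD replicate 1. ITGB8, whose heterodimer with the alpha v subunit activates latent TGF-beta, had 2.91 and 2.49 RPKM in circPRE2 sgNORAD against 1.17 and 1.04 RPKM in parental sgNORAD (log2 change 1.22, adjusted p = 1.61e-05). In parental sgControl ITGB8 had 1.97 and 1.84 RPKM. ITGA7, a laminin-binding subunit, followed with 3.97 and 4.09 RPKM in circPRE2 sgNORAD against 2.27 and 2.83 RPKM in parental sgNORAD (0.65, adjusted p = 0.00106). The abundant hemidesmosomal subunit gene ITGB4 had 119 and 113 RPKM in circPRE2 sgNORAD against 101 and 95.4 RPKM in parental sgNORAD (0.24), and its partner ITGA6 was the 1 fall (-0.22). ITGA6 did not pass without circPRE2 sgNORAD replicate 1 (adjusted p = 0.0605) or parental sgNORAD replicate 1 (0.0501). The log2 change of ITGB1, the common beta subunit, was 0.01 (95% interval -0.07 to 0.09).

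Among 23 extracellular matrix genes and modifiers there were 11 rises and 3 falls, with 9 not past the threshold and a median of 0.26. The calcium-binding matrix glycoprotein gene SPARC had 1.38 and 1.62 RPKM in circPRE2 sgNORAD against 0.637 and 0.735 RPKM in parental sgNORAD (log2 change 1.02, adjusted p = 0.000968). The collagen cross-linking enzyme genes LOXL4 (0.93) and LOXL2 (0.61), the protease inhibitor gene TIMP1 (0.45) and the laminin gene LAMB1 (0.45) rose, and the falls included the laminin genes LAMB3 and LAMC1, with log2 changes of -0.22 and -0.20. SPARC is also a fibroblast marker, and of the 3 fibroblast markers tested it alone passed: COL1A1 had a log2 change of 0.24 (adjusted p = 0.156) and COL3A1 -0.09, while PDGFRB, PDGFRA, DCN, LUM and THY1 were below 0.07 RPKM in both groups. COL1A2 and POSTN, also below the filter, were higher. COL1A2 had 0.198 and 0.291 RPKM in circPRE2 sgNORAD against 0.278 and 0.214 RPKM in parental sgNORAD. POSTN had 0.0356 and 0.157 RPKM in circPRE2 sgNORAD against 0.0709 and 0.0481 RPKM in parental sgNORAD. The fibroblast rises were 2 without either circPRE8 library. Of the embryonic kidney and neural line markers, PAX2 alone was tested and rose (0.60), while NEFL, NEFM, STMN2 and GAP43 were below 0.01 RPKM in both groups and LIN28B was at or below 0.0474 RPKM. The part of other cells in the SPARC value was not tested, and in bulk RNA more cells of a type and more RNA per cell cannot be told apart. The 11 rises became 7 without circPRE2 sgNORAD replicate 1. The 3 falls became 0 without that library, without circPRE2 sgNORAD replicate 2 or without parental sgNORAD replicate 1.

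Of 25 clotting and secreted protease genes, 7 rose and 3 fell, with a median of 0.08. Coagulation factor X gene F10 had 2.58 and 2.37 RPKM in circPRE2 sgNORAD against 0.688 and 0.585 RPKM in parental sgNORAD (log2 change 1.81, adjusted p = 3.36e-07), and the protease inhibitor gene SERPINA1 (0.89) rose, while the urokinase gene PLAU fell (-0.42). F10 was lower in parental sgNORAD, with 0.688 and 0.585 RPKM, than in both parental sgControl libraries, with 1.91 RPKM (-1.45), a comparison that shares the parental sgNORAD libraries. The 7 rises became 3 without circPRE2 sgNORAD replicate 1 and 4 without circPRE2 sgNORAD replicate 2, and the 3 falls became 1 without circPRE2 sgNORAD replicate 2. Of 18 S100 and annexin genes, 7 rose and 2 fell, with a median of 0.07. ANXA10, an annexin, had 1.06 and 0.933 RPKM in circPRE2 sgNORAD against 0.175 and 0.217 RPKM in parental sgNORAD (1.89), and S100A4, a calcium-binding protein of motile cells, had 189 and 174 RPKM in circPRE2 sgNORAD against 143 and 146 RPKM in parental sgNORAD (0.33), whereas S100A14 had 33.6 and 34.8 RPKM in circPRE2 sgNORAD against 55.9 and 53.9 RPKM in parental sgNORAD (-0.68). In parental sgControl S100A4 had 215 and 220 RPKM, above both groups compared. The 2 falls of this list became 1 without circPRE2 sgNORAD replicate 1 or parental sgNORAD replicate 1, and 4 without parental sgNORAD replicate 2 or with median-of-ratios size factors.

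DKK1, a secreted Wnt inhibitor and the rise with the second largest difference in level, had 160 and 154 RPKM in circPRE2 sgNORAD against 71.1 and 68.6 RPKM in parental sgNORAD (log2 change 1.16, SE 0.04, adjusted p = 7.51e-09). NOTUM, which removes the lipid from Wnt proteins, had 8.86 and 8.7 RPKM in circPRE2 sgNORAD against 5.66 and 5.5 RPKM in parental sgNORAD (0.65), and AXIN2, a feedback inhibitor, had 3.36 and 3.52 RPKM in circPRE2 sgNORAD against 2.43 and 2.11 RPKM in parental sgNORAD (0.58). The DKK co-receptor gene KREMEN1 was the fourth rise of this list (0.30), which had 4 rises and no fall among 11 genes, with 7 not past the threshold and a median of 0.15.

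Of 14 TGF-beta and YAP targets, 6 rose, none fell and 8 did not pass, with a median of 0.20. Fewer of these rises passed without either circPRE2 library, and more without parental sgNORAD replicate 1 or either circPRE8 library. SMAD7, an inhibitor of TGF-beta receptors, had 0.919 and 1.09 RPKM in circPRE2 sgNORAD against 0.469 and 0.504 RPKM in parental sgNORAD (log2 change 0.91), and the matricellular protein gene CCN2 had 3.36 and 3.37 RPKM in circPRE2 sgNORAD against 1.94 and 2.13 RPKM in parental sgNORAD (0.70). SMAD6, an inhibitor of BMP signalling, rose by 0.45 and lost its call without either circPRE2 library (adjusted p = 0.0524 and 0.0592). In the BMP and ID list 3 of 10 genes rose and 1 fell: ID1 had 265 and 262 RPKM in circPRE2 sgNORAD against 208 and 214 RPKM in parental sgNORAD (0.32), ID3 rose by 0.49 and ID2 by 0.16, and the ligand gene BMP4 fell, with 35.6 and 33.8 RPKM in circPRE2 sgNORAD against 42.6 and 40.8 RPKM in parental sgNORAD (-0.26). In parental sgControl ID1 had 267 and 280 RPKM. ID2 did not pass without circPRE2 sgNORAD replicate 1 (adjusted p = 0.105), circPRE2 sgNORAD replicate 2 (0.094) or parental sgNORAD replicate 2 (0.063).

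Of 20 MAPK feedback genes, 7 rose and 4 fell, with a median of 0.16. The ERK phosphatase gene DUSP6 had 61.6 and 56.2 RPKM in circPRE2 sgNORAD against 35.6 and 35.7 RPKM in parental sgNORAD (log2 change 0.72, adjusted p = 4.29e-06), and the immediate early genes FOS (0.62) and EGR1 (0.39) rose, while FOSL1, DUSP5, DUSP4 and PHLDA1 fell by less than 0.3 on the log2 scale. The rises became 4 without circPRE2 sgNORAD replicate 1 and the falls 1 without circPRE2 sgNORAD replicate 2. EREG, which encodes the EGFR ligand epiregulin, had 104 RPKM in both circPRE2 sgNORAD libraries against 157 and 155 RPKM in parental sgNORAD (-0.59, adjusted p = 7.53e-05), AREG, which encodes amphiregulin, had 78 and 77.6 RPKM in circPRE2 sgNORAD against 98 and 97.4 RPKM in parental sgNORAD (-0.33), and TGFA fell too (-0.24). The EGFR inhibitor gene LRIG1 rose (0.82), so that 2 of 11 genes of that list rose and 4 fell, with a median of -0.01. The 2 rises became 1 without circPRE2 sgNORAD replicate 1, without either parental sgNORAD library, without either circPRE8 library or with median-of-ratios size factors.

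In the Notch pathway 4 of 19 genes rose, none fell and 15 did not pass, with a median of 0.06. DNER, a transmembrane Notch ligand, had 1.76 and 1.78 RPKM in circPRE2 sgNORAD against 0.869 and 0.679 RPKM in parental sgNORAD (log2 change 1.10), and the Fringe glycosyltransferase gene LFNG rose by 0.53. In parental sgControl DNER had 2.13 and 2.41 RPKM, above both groups compared. The 4 rises became 2 without circPRE2 sgNORAD replicate 1 and 7 without parental sgNORAD replicate 1, and there were 2 falls without circPRE2 sgNORAD replicate 2 and 1 without parental sgNORAD replicate 2. Of 15 circadian clock genes, BHLHE40 (0.49) and CRY1 (0.34) rose and none fell, with a median of 0.03. That was 13.3% higher, near the 10.9% of all genes tested. The rises were 4 without circPRE2 sgNORAD replicate 2 or parental sgNORAD replicate 1, and there was 1 fall without parental sgNORAD replicate 2 or with median-of-ratios size factors.

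Interferon-stimulated genes moved in 1 direction where they moved. In the list of interferon and double-stranded RNA response genes, with 35 tested, there were 17 rises (48.6%) and no fall, with 18 not past the threshold and a median of 0.22. Between circPRE2 sgNORAD and circPRE8 sgNORAD, 6 were higher in circPRE2, 3 were lower and 26 did not pass, with a median of 0.02. IFI6, a mitochondrial and endoplasmic reticulum protein induced by interferon, had 46.1 and 39.9 RPKM in circPRE2 sgNORAD against 17.7 and 18 RPKM in parental sgNORAD (log2 change 1.26, adjusted p = 0.000318). BST2, which tethers virus particles, had 2.97 and 2.11 RPKM in circPRE2 sgNORAD against 1.25 and 1.27 RPKM in parental sgNORAD (0.94), IFIT1, a sensor of viral RNA ends, had 2.93 and 2.84 RPKM in circPRE2 sgNORAD against 1.54 and 1.7 RPKM in parental sgNORAD (0.80), and the transcription factor gene IRF7 had 5.38 and 4.74 RPKM in circPRE2 sgNORAD against 3.27 and 2.81 RPKM in parental sgNORAD (0.72). ISG15, a ubiquitin-like modifier and a more abundant member, had 84.2 and 85.6 RPKM in circPRE2 sgNORAD against 67.3 and 63.7 RPKM in parental sgNORAD (0.37). The RNA sensors DDX58 (0.23, adjusted p = 0.0513) and IFIH1 (0.20, adjusted p = 0.161) did not pass. BST2 did not pass without circPRE2 sgNORAD replicate 1 (adjusted p = 0.111). The 17 rises became 9 without circPRE2 sgNORAD replicate 1 and 11 without circPRE2 sgNORAD replicate 2, and no fall appeared when any single library was left out.

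Of 16 genes of MHC class I presentation, 8 rose, none fell and 8 did not pass, with a median of 0.13. Fewer of these rises passed without either circPRE2 library. Against circPRE8 sgNORAD, 2 of the 16 genes were higher and 9 lower in circPRE2 sgNORAD, with a median of -0.14. HLA-B had 46.9 and 47.2 RPKM in circPRE2 sgNORAD against 37.7 and 35.3 RPKM in parental sgNORAD (log2 change 0.37, adjusted p = 0.00081), the immunoproteasome subunit gene PSMB9 rose by 0.59, HLA-F by 0.61 and the light chain gene B2M by 0.19. HLA-DRB1, a class II beta chain, had 2.36 and 1.84 RPKM in circPRE2 sgNORAD against 0.831 and 0.783 RPKM in parental sgNORAD (1.27, adjusted p = 0.000115). HLA genes share near-identical stretches, and how the counting split shared reads is not stated, so single HLA values are uncertain. CORO1A was the blood marker that was tested and it passed (0.35, adjusted p = 0.0427), losing its call without any 1 of the 8 libraries (adjusted p 0.0533 to 0.192); PTPRC and CD3E were below 0.04 RPKM in all 4 libraries.

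NF-kB targets and cytokines were mixed, with 5 of 18 higher, 4 lower and a median of 0.01. The adhesion molecule gene ICAM1 had 2.87 and 2.75 RPKM in circPRE2 sgNORAD against 1.92 and 1.76 RPKM in parental sgNORAD (log2 change 0.58, adjusted p = 0.0154), and the cytokine gene IL11 rose by 0.60, while the apoptosis inhibitor gene BIRC3 fell (-0.47) and IL32 had 6 and 6.26 RPKM in circPRE2 sgNORAD against 7.94 and 7.7 RPKM in parental sgNORAD (-0.35, adjusted p = 0.0448). Leaving out circPRE2 sgNORAD replicate 1 gave 0 rises and 1 fall, and ICAM1 (adjusted p = 0.0996), IL11 (0.202) and BIRC3 (0.0774) did not pass. The counts were 2 rises and 1 fall without circPRE2 sgNORAD replicate 2, and 2 rises and 2 falls without parental sgNORAD replicate 1.

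**Figure D3:**
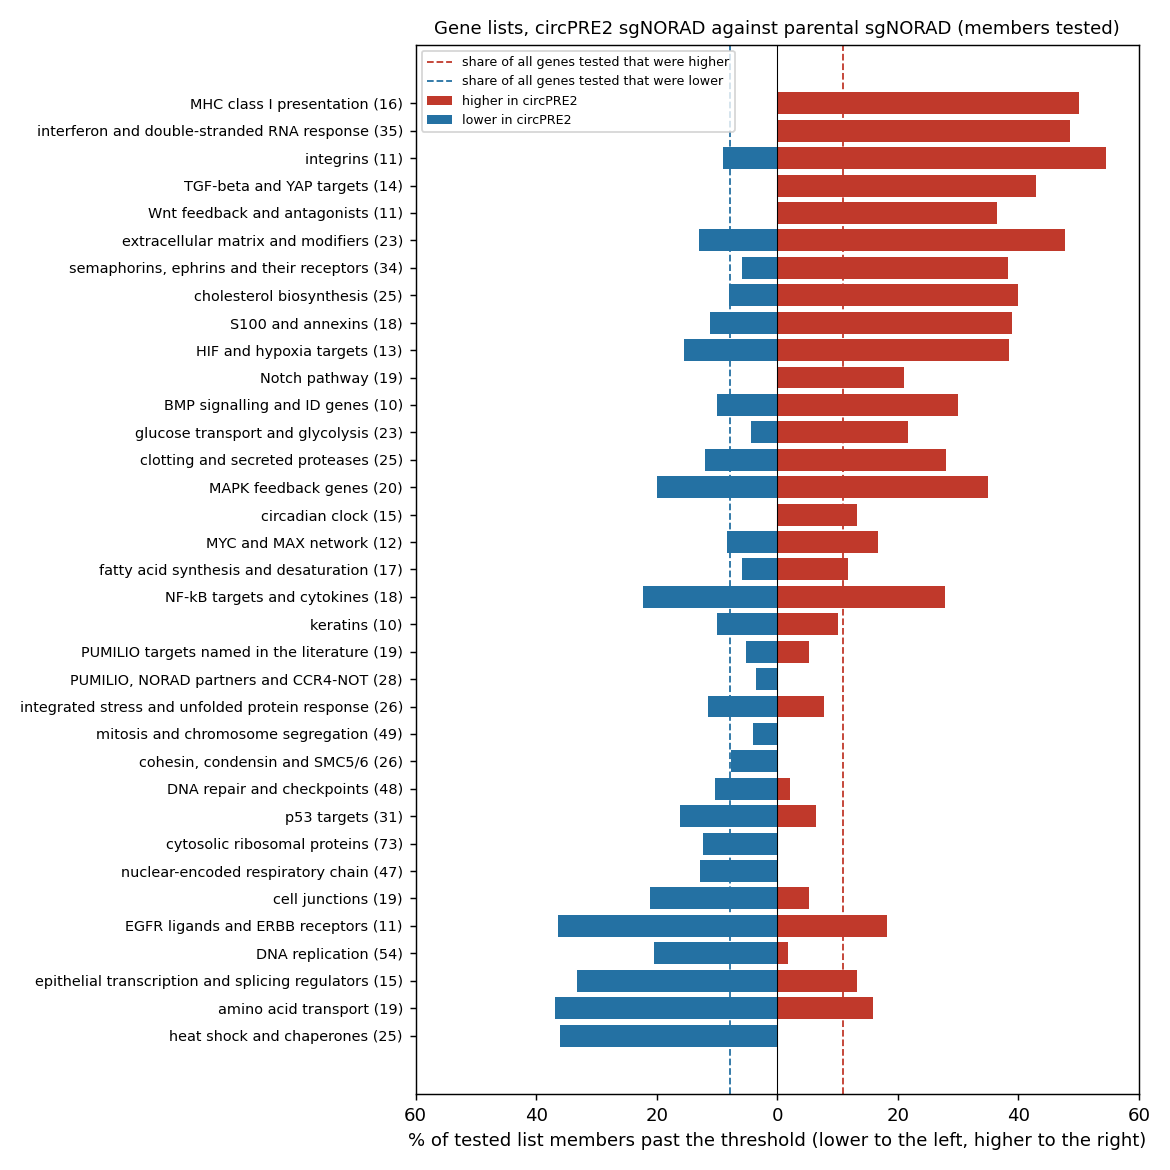
Share of tested members of each gene list that passed the threshold (horizontal axis, %), to the right when higher and to the left when lower in circPRE2 sgNORAD than in parental sgNORAD, for lists with at least 10 members tested (number in brackets). The dashed lines are the shares over all genes tested, 10.9% higher and 7.91% lower; the interferon list reaches 48.6% to the right with nothing to the left.

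Epithelial identity genes held the largest fall among called genes with groups not overlapping and a mean of at least 1 RPKM in the higher group. EHF (chromosome 11, 34621093 to 34661057, plus strand), an epithelial ETS transcription factor, had 2.25 and 2.06 RPKM in circPRE2 sgNORAD against 10.2 and 9.01 RPKM in parental sgNORAD. The groups were far apart, with a log2 change of -2.10 (SE 0.06; 4.3-fold lower, adjusted p = 3.55e-09). EHF stood at 20.4 and 21.1 RPKM in circPRE8 sgNORAD and at 20.6 and 21 RPKM in parental sgControl, so circPRE2 sgNORAD was the lowest of the 4 groups. The epithelial regulator GRHL2 had 3.09 and 2.69 RPKM in circPRE2 sgNORAD against 4.2 and 3.92 RPKM in parental sgNORAD (-0.48). HNF4A had 0.142 and 0.163 RPKM in circPRE2 sgNORAD against 0.328 and 0.296 RPKM in parental sgNORAD (-0.71, limma adjusted p = 0.0142). These HNF4A values were all under the 0.5 RPKM filter, which the gene passed only through circPRE8 sgNORAD or parental sgControl libraries. Of 15 epithelial transcription and splicing regulators, 5 fell, 2 rose (GATA6, 0.36, and SOX9, 0.15) and 8 did not pass, with a median of -0.12. The 5 falls became 2 without circPRE2 sgNORAD replicate 1 or parental sgNORAD replicate 1, and HNF4A then did not pass (adjusted p = 0.105 and 0.0678). The 2 rises became 1 without either circPRE2 library or without parental sgNORAD replicate 2.

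KRT7, a simple-epithelium keratin, had 1.42 and 1.35 RPKM in circPRE2 sgNORAD against 3.54 and 2.93 RPKM in parental sgNORAD (log2 change -1.16, adjusted p = 4.96e-05). KRT7 and KRT23 passed, in opposite directions, among 10 keratins (median -0.02; 2 falls without parental sgNORAD replicate 2), and the abundant KRT8, KRT18 and KRT19 had log2 changes of 0.09, 0.09 and 0.03. Each direction held 10.0% of the keratins tested, near the 10.9% higher and 7.91% lower of all genes tested. EPCAM, an epithelial adhesion molecule, had 91.3 and 94.5 RPKM in circPRE2 sgNORAD against 113 and 112 RPKM in parental sgNORAD (-0.28, adjusted p = 0.000522). It was 1 of 4 falls among 19 cell junction genes, with the desmosomal cadherins DSC2 (-0.25) and DSG2 (-0.18) and the claudin gene CLDN7 (-0.17), while the plakoglobin gene JUP rose (0.14). The junction falls became 2 without either circPRE2 library and 7 without parental sgNORAD replicate 2. JUP was not called without either circPRE2 library or without parental sgNORAD replicate 2. The list's median was -0.10. CDX2, an intestinal transcription factor, had a log2 change of -0.01 (95% interval -0.13 to 0.11).

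Other large falls were scattered over several functions. EMP1, a tetraspan membrane protein of epithelia, had 5.35 and 5.65 RPKM in circPRE2 sgNORAD against 10.7 and 10.3 RPKM in parental sgNORAD (log2 change -0.92), and NAV3, a neuron navigator, had 0.949 and 0.822 RPKM in circPRE2 sgNORAD against 1.81 and 1.58 RPKM in parental sgNORAD (-0.87). MAL2, a protein of transcytosis, had 42.2 and 47 RPKM in circPRE2 sgNORAD against 70.3 and 69.2 RPKM in parental sgNORAD (-0.65, limma adjusted p = 0.00587), and HMGN5, a nucleosome-binding protein, fell by 0.67. In parental sgControl MAL2 had 30.5 and 32 RPKM, below both groups compared. EMP1 (13.1 and 13.8 RPKM) and HMGN5 (3.65 and 3.39 RPKM) were there above both groups, and NAV3 (1.75 and 1.76 RPKM) was near parental sgNORAD. The falls of OR51I1, TMEM238, SRXN1, CRLS1, TAF10 and HIST1H1E, between -0.62 and -0.79, lost their calls when some single libraries were left out. OR51I1 had 0.503 and 0.673 RPKM in circPRE2 sgNORAD against 1.08 and 1.09 RPKM in parental sgNORAD, and its log2 change was -0.61 without circPRE2 sgNORAD replicate 1 and -0.80 without parental sgNORAD replicate 1. In parental sgControl OR51I1 had 0.497 and 0.354 RPKM, below both groups compared. TMEM238, SRXN1 and TAF10 were there above both groups, and CRLS1 and HIST1H1E were near parental sgNORAD. TMEM238 had wider pairs, with 3.37 and 4.91 RPKM in circPRE2 sgNORAD and 8.98 and 5.49 RPKM in parental sgNORAD. Without circPRE2 sgNORAD replicate 1, OR51I1 (adjusted p = 0.137), TMEM238 (0.129), SRXN1 (0.0984), CRLS1 (0.0519) and TAF10 (0.0941) did not pass, and HIST1H1E did not pass without circPRE2 sgNORAD replicate 2 (0.0741). OR51I1 (0.0548), TMEM238 (0.081), SRXN1 (0.0814) and TAF10 (0.0653) also did not pass without parental sgNORAD replicate 1. OR51I1 lies inside the annotated span of HBG2 and HBE1 on the same strand and TAF10 overlaps ILK on the opposite strand, so their reads may be shared. KRT7, SRXN1, NEBL and S100A4 likewise overlap KRT86, AL121758.1, C10orf113 and S100A3 on the same strand, and IGF2BP3 and ZBED2 overlap MALSU1 and CD96 on the opposite strand. Further genes named in the text overlap others, among them ENO2, LOXL2, MXD3, HLA-B and SDAD1 on the same strand. ITGA7, LRIG1, PSMB9 and IFIT1 are among those that do so on the opposite strand.

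**Figure D4:**
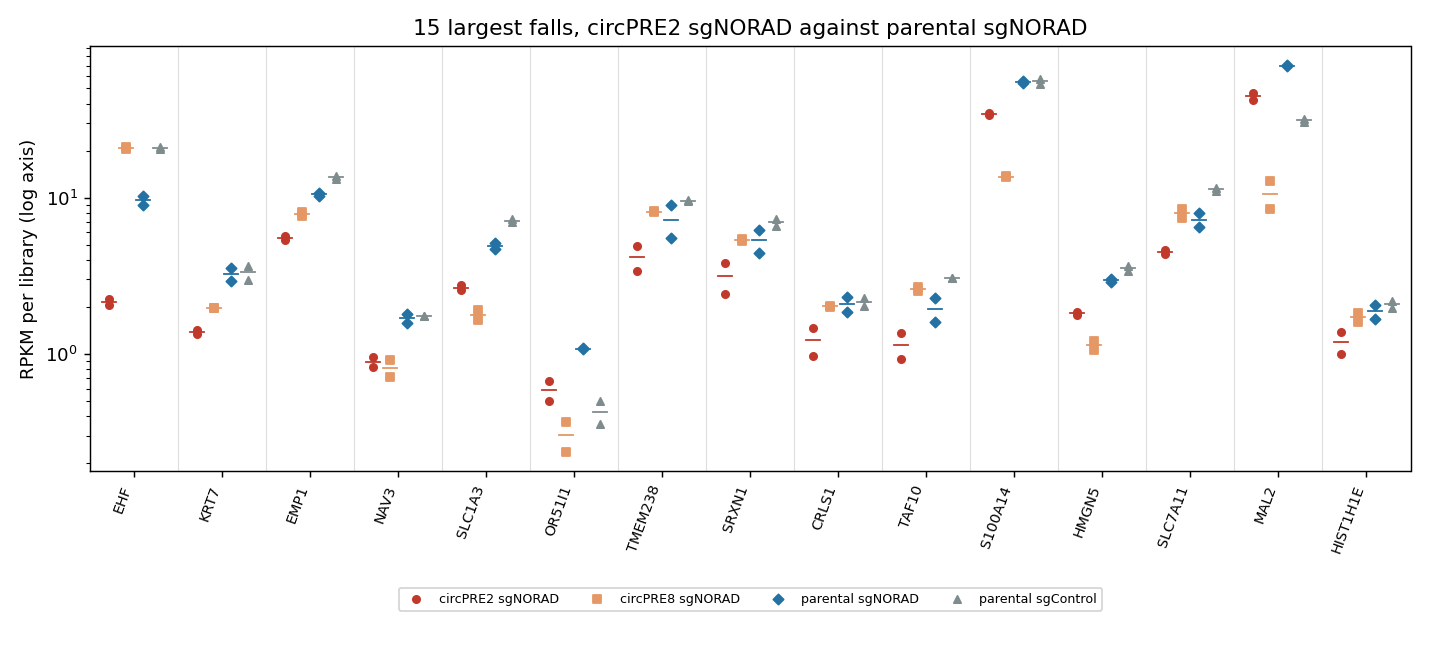
RPKM per library on a log axis for 15 genes, with 1 point per library and a line at the mean of 2. These are the largest falls among called genes with groups not overlapping and a mean of at least 1 RPKM in the higher group. The group order is circPRE2 sgNORAD, circPRE8 sgNORAD, parental sgNORAD, parental sgControl. EHF shows the widest gap, 2.25 and 2.06 RPKM in circPRE2 sgNORAD against 10.2 and 9.01 RPKM in parental sgNORAD, while TMEM238, SRXN1 and TAF10 show wide spread within the circPRE2 and parental sgNORAD pairs.

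Amino acid transporters fell more often than they rose, with 7 of 19 lower, 3 higher and a median of -0.08. SLC1A3, a glutamate and aspartate transporter, had 2.77 and 2.55 RPKM in circPRE2 sgNORAD against 5.1 and 4.66 RPKM in parental sgNORAD (log2 change -0.85, adjusted p = 6.05e-05). SLC7A11, the cystine importer whose 4 motif copies are printed above, had 4.63 and 4.34 RPKM in circPRE2 sgNORAD against 7.94 and 6.47 RPKM in parental sgNORAD (-0.67, adjusted p = 0.000524), and the leucine transporter gene SLC7A5 had 142 and 148 RPKM in circPRE2 sgNORAD against 190 and 177 RPKM in parental sgNORAD (-0.34). The neuronal-type glutamate transporter gene SLC1A1 rose (0.47). The 7 falls became 3 without parental sgNORAD replicate 1 and 4 without circPRE2 sgNORAD replicate 2, and the 3 rises became 1 without either circPRE2 library or parental sgNORAD replicate 2. Of 26 genes of the integrated stress and unfolded protein response, 2 rose and 3 fell, ATF3 (-0.32) and the serine synthesis gene PSAT1 (-0.28) among the falls, with a median of -0.02. The shares were 7.69% higher and 11.5% lower, against 10.9% and 7.91% of all genes tested. These stress counts were 0 rises and 1 fall without circPRE2 sgNORAD replicate 1, and ATF3 then had an adjusted p of 0.0709. The rises were 0 without circPRE2 sgNORAD replicate 2 or parental sgNORAD replicate 2, and without parental sgNORAD replicate 1 there were 4 rises and 1 fall, ATF3 not passing (0.0569). Without either parental sgControl library there were 5 falls.

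Of 25 cholesterol genes, 10 rose, 2 fell and 13 did not pass, with a median of 0.10. STARD4, a sterol carrier, had 11.3 and 11.2 RPKM in circPRE2 sgNORAD against 7.91 and 7.75 RPKM in parental sgNORAD (log2 change 0.52). The 2 falls were the transcription factor gene SREBF2 and the squalene epoxidase gene SQLE, both at -0.27. STARD4 had been lower in parental sgNORAD than in parental sgControl (-0.70), a comparison that shares the parental sgNORAD libraries. The 10 rises became 5 without circPRE2 sgNORAD replicate 1. Among 17 fatty acid genes 2 rose and 1 fell (11.8% and 5.88%, against 10.9% and 7.91% of all genes tested), with a median of 0.05: SCD, a desaturase, had the largest gain in level of the genes past the threshold, with 532 and 511 RPKM in circPRE2 sgNORAD against 444 and 410 RPKM in parental sgNORAD (0.29, adjusted p = 0.00174), and ACSL5, an acyl-CoA synthetase, fell (-0.30). In parental sgControl SCD had 664 and 672 RPKM, above both groups compared. ACSL5 did not pass without circPRE2 sgNORAD replicate 2 (adjusted p = 0.0752). The 2 rises became 1 without either circPRE2 library, and the 1 fall became 2 without parental sgNORAD replicate 2, without either parental sgControl library or with either other scaling; median-of-ratios size factors gave 1 rise.

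Of 25 heat shock and chaperone genes, 9 fell, none rose and 16 did not pass, with a median of -0.11. DNAJA1, a co-chaperone, had 90.4 and 95.1 RPKM in circPRE2 sgNORAD against 115 RPKM in both parental sgNORAD libraries (log2 change -0.31, adjusted p = 0.0006), and HSPD1, the mitochondrial chaperonin, had 349 and 361 RPKM in circPRE2 sgNORAD against 403 and 399 RPKM in parental sgNORAD (-0.18). The 9 falls became 1 without circPRE2 sgNORAD replicate 1, where HSPD1 did not pass (adjusted p = 0.0917), and 2 without parental sgNORAD replicate 1. MYC had 72 and 71.5 RPKM in circPRE2 sgNORAD against 92.1 and 93 RPKM in parental sgNORAD (-0.37, adjusted p = 0.000136), and its antagonists MXD3 (0.32) and MXD4 (0.19) rose, as 2 rises and 1 fall of 12 network genes with a median of -0.06. MXD4 did not pass without circPRE2 sgNORAD replicate 1 (0.241), circPRE2 sgNORAD replicate 2 (0.0595) or parental sgNORAD replicate 1 (0.206), the fall count was 3 without parental sgNORAD replicate 2, and the rise count was 1 with median-of-ratios size factors. The largest losses in level were of HMGA1, a chromatin architectural protein, and YBX1, an RNA- and DNA-binding protein. HMGA1 had 957 and 1020 RPKM in circPRE2 sgNORAD against 1290 and 1250 RPKM in parental sgNORAD (-0.36, limma adjusted p = 0.000769). YBX1 had 266 and 294 RPKM in circPRE2 sgNORAD against 341 and 331 RPKM in parental sgNORAD (-0.26). The YBX1 change was -0.19, and no longer passed, without circPRE2 sgNORAD replicate 1. In parental sgControl YBX1 had 216 and 228 RPKM, below both groups compared, while HMGA1 had 1190 and 1260 RPKM.

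Ribosomal protein genes had 0 rises, 9 falls and 64 not past the threshold of 73 tested, with a median of -0.07, and the nuclear-encoded respiratory chain had 0 rises and 6 falls of 47, with a median of -0.05. The shares lower were 12.3% and 12.8%, against 7.91% of all genes tested. Examples were RPL14, with 83.3 and 85.7 RPKM in circPRE2 sgNORAD against 97.9 and 96.1 RPKM in parental sgNORAD (log2 change -0.20), and the cytochrome c1 gene CYC1 (-0.18). Ribosomal proteins have many pseudogenes, so their values are uncertain where reads were shared. These lists had 1 and 0 falls without circPRE2 sgNORAD replicate 1, and CYC1 did not pass (adjusted p = 0.136). Without circPRE2 sgNORAD replicate 2 they were 5 and 3, without parental sgNORAD replicate 1 they were 2 and 1 with CYC1 at 0.0514, and the ribosomal count was 4 without parental sgNORAD replicate 2 and 5 without either circPRE8 library. With median-of-ratios size factors the falls were 14 and 10. The 4 mitochondrially encoded genes had a median of 0.50 and none passed (4 rose without parental sgNORAD replicate 2), beside the low mitochondrial share of parental sgNORAD replicate 1.

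Genome maintenance genes, which the series title names, had small changes. Among the 54 tested genes of DNA replication there were 11 falls and 1 rise, of the thymidine kinase gene TK1 (0.14), with a median of -0.10. The polymerase epsilon subunit gene POLE2 had 7.41 and 7.01 RPKM in circPRE2 sgNORAD against 9.01 and 8.49 RPKM in parental sgNORAD (log2 change -0.28, adjusted p = 0.00597), and the thymidylate synthase gene TYMS fell by 0.25. The fall count was 3 without circPRE2 sgNORAD replicate 1, 6 without circPRE2 sgNORAD replicate 2, 5 without parental sgNORAD replicate 1, 18 without parental sgNORAD replicate 2, 21 with median-of-ratios size factors and 19 with upper quartile factors. The TK1 call was lost without either circPRE2 library, either circPRE8 library or parental sgNORAD replicate 2, and with median-of-ratios size factors. TYMS did not pass without circPRE2 sgNORAD replicate 1 (adjusted p = 0.108) or parental sgNORAD replicate 1 (0.0626). In DNA repair and checkpoints 1 of 48 rose and 5 fell, with a median of -0.10, in mitosis and chromosome segregation none of 49 rose and 2 fell (CCNA2, -0.17, and CDC20, -0.16), with a median of -0.03, and in cohesin, condensin and SMC5/6 none of 26 rose and 2 fell (SMC6, -0.22, and NSMCE1, -0.16), with a median of -0.06. The shares lower were 10.4%, 4.08% and 7.69%, against 7.91% of all genes tested. The falls became 0 in each of those 3 lists without circPRE2 sgNORAD replicate 1; they became 2, 1 and 2 without circPRE2 sgNORAD replicate 2, and 2, 0 and 0 without parental sgNORAD replicate 1. Repair had 3 falls without either library of parental sgControl or circPRE8 sgNORAD, and cohesin had 4 without parental sgNORAD replicate 2. With median-of-ratios size factors repair had 10 falls and no rise and cohesin 5 falls; with upper quartile factors the falls were 9 and 4. The repair rise was lost when any 1 library of circPRE2 sgNORAD, circPRE8 sgNORAD or parental sgControl was left out. Of 31 p53 targets, 2 rose and 5 fell, PMAIP1, a BH3-only protein, with 32.5 and 33.8 RPKM in circPRE2 sgNORAD against 41.8 and 41.1 RPKM in parental sgNORAD (-0.32, adjusted p = 0.000177). The median was -0.03 and the falls became 1 without either circPRE2 library or parental sgNORAD replicate 1, while the rises became 0 without circPRE2 sgNORAD replicate 1 and 1 without circPRE2 sgNORAD replicate 2 or parental sgNORAD replicate 1. CDKN1A, the main cell cycle inhibitor among them, had 145 and 147 RPKM in circPRE2 sgNORAD and 150 and 148 RPKM in parental sgNORAD, with a log2 difference of -0.03 (95% interval -0.12 to 0.07).

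PUMILIO genes and their known targets showed few calls. PUM2 had 28.5 and 26.9 RPKM in circPRE2 sgNORAD and 29.5 and 26.6 RPKM in parental sgNORAD (log2 difference -0.01, 95% interval -0.13 to 0.10). Of 28 PUMILIO, NORAD partner and CCR4-NOT genes, PUM3, a nucleolar PUM-domain protein, was the 1 call, with 18.4 and 18.5 RPKM in circPRE2 sgNORAD against 20.8 and 21.1 RPKM in parental sgNORAD (-0.18), and the median was -0.04. Of 19 PUMILIO targets named in the literature, CDKN1B rose (0.21) and SDAD1 fell (-0.22), with a median of -0.04. PUM3 (adjusted p = 0.06) and SDAD1 (0.0533) did not pass without circPRE2 sgNORAD replicate 1, nor CDKN1B (0.0804) without circPRE2 sgNORAD replicate 2. Without parental sgNORAD replicate 2 the falls were 4 and 2, with median-of-ratios size factors 4 and 3, and with upper quartile factors 4 and 2.

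The 3′ UTR motif was no more frequent among called genes than among the rest. It stood in the 3′ UTR of 297 of 1257 higher genes (23.6%), 248 of 916 lower genes (27.1%), 29.1% of the genes that did not pass and 28.4% of the 11580 with a transcript. Genes with no motif, 1 motif and 2 or more motifs had median log2 changes of 0.01, 0.00 and -0.01. Longer 3′ UTRs hold more matches, and the median 3′ UTR length was 1040 bases in higher genes, 1160 in lower genes and 1261 in genes that did not pass. The 53 genes named for size of change or difference in level in either comparison included 10 (18.9%) with a motif, among them FGF9 with 5 copies and SEMA3A and SLC7A11 with 4 each. SEMA3A was among the largest rises and SLC7A11 among the largest falls.

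Positions along the genome showed only small shifts. The median log2 change per chromosome ranged between -0.04 on chromosome 18 and 0.04 on chromosomes 19 and 22. On chromosome 18, 16.2% of the tested genes were lower, and on chromosome 19, 14.9% were higher. Of 199 windows of 100 neighbouring tested genes, the highest medians were 0.13 (chromosome 19, 47713343 to 51948759) and 0.12 (chromosome 6, 27146418 to 33192499, which holds the MHC genes), and the lowest was -0.06.

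A second comparison asked which changes set circPRE2 apart from circPRE8, both with the NORAD guide. It called 2975 genes higher and 2081 lower in circPRE2 sgNORAD than in circPRE8 sgNORAD (25.7% higher, 18.0% lower, 43.6% either way), with 45.4% of calls higher by median-of-ratios size factors against 58.8% as deposited. Its calls share the circPRE2 libraries with the first comparison. Of the 1257 genes higher than in parental sgNORAD, 292 were also higher than in circPRE8 sgNORAD, 626 did not pass against it and 339 were lower than in circPRE8. Of the 916 lower genes, 214 were also lower than in circPRE8, 408 did not pass and 294 were higher. Over all genes tested, 25.7% were higher and 18.0% lower than in circPRE8 sgNORAD. The joint counts are therefore not read as a set particular to circPRE2.

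EHF led the genes of at least 1 RPKM that were lower than in both lines, with a log2 change of -3.21 against circPRE8 sgNORAD (limma adjusted p = 5.56e-11). BMP4 had 35.6 and 33.8 RPKM in circPRE2 sgNORAD, 71.5 and 74 RPKM in circPRE8 sgNORAD and 42.6 and 40.8 RPKM in parental sgNORAD, a log2 change of -1.07 against circPRE8. ZBED2, a transcription factor, had 9.52 and 9.49 RPKM in circPRE2 sgNORAD, 21.1 and 19.4 RPKM in circPRE8 sgNORAD and 11.4 and 10.8 RPKM in parental sgNORAD (-1.08 against circPRE8). In BMP4 and ZBED2, circPRE2 and parental sgNORAD lay close together and circPRE8 sgNORAD stood near parental sgControl, which had 68.7 and 69.5 RPKM of BMP4 and 20.9 and 20.5 RPKM of ZBED2. PLPP3, NRP1, SCG2, TAF10 and FGF9 were the other falls named, between -1.14 and -1.72 against circPRE8.

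IGF2BP3, an RNA-binding protein of fetal tissue and tumours, was among the genes higher than in both lines. It had 13.3 and 13.8 RPKM in circPRE2 sgNORAD, 5.4 and 4.84 RPKM in circPRE8 sgNORAD, 11.1 and 10.6 RPKM in parental sgNORAD and 2.05 and 2.13 RPKM in parental sgControl. The log2 change was 1.39 against circPRE8 sgNORAD and 0.31 against parental sgNORAD (adjusted p = 3.45e-08 and 0.00492). KITLG, the ligand of the KIT receptor, had 222 and 210 RPKM in circPRE2 sgNORAD, 116 and 113 RPKM in circPRE8 sgNORAD and 197 and 196 RPKM in parental sgNORAD (0.91 against circPRE8). ICAM1, FAM19A3, SAT1, FOS, ID2 and SOX4 completed the named rises, at 0.98 to 1.74 against circPRE8. Of these 16 genes, EHF, IGF2BP3, FOS and BMP4 kept their call against parental sgNORAD with any 1 library left out, and the others lost it without at least 1 library, with KITLG at an adjusted p of 0.263 and SAT1 at 0.174 without circPRE2 sgNORAD replicate 1.

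**Figure D5:**
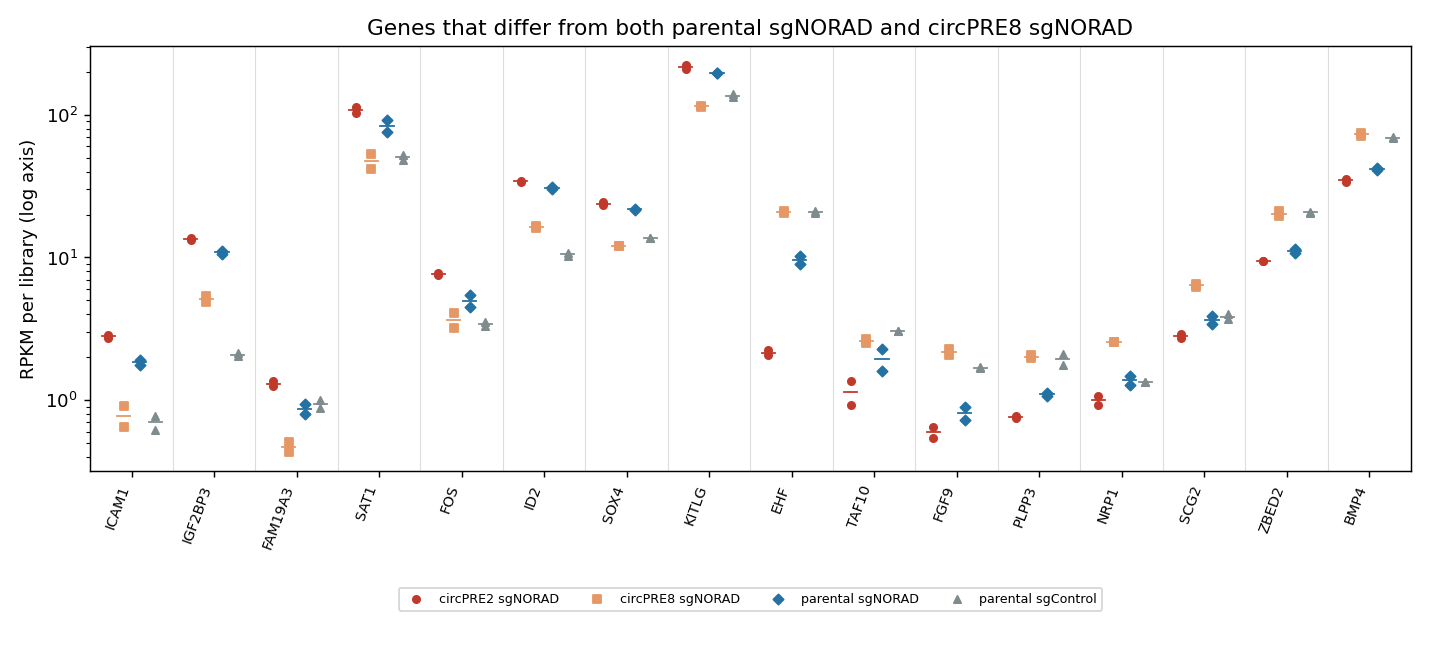
RPKM per library on a log axis for 8 rises and 8 falls, with 1 point per library and a line at the mean of 2. They are the largest against circPRE8 sgNORAD among genes also called in the same direction against parental sgNORAD. Only genes with a mean of at least 1 RPKM in circPRE2 sgNORAD or circPRE8 sgNORAD were taken. Except for FAM19A3, NRP1 and SCG2, the circPRE8 sgNORAD points lie nearer to parental sgControl than the circPRE2 points do, as for BMP4 at 71.5 and 74 RPKM in circPRE8 sgNORAD against 68.7 and 69.5 RPKM in parental sgControl.

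For the leading changes against parental sgNORAD, the difference between the lines with the guide varied by gene. SEMA3A, SAMD5, AC080038.1, HLA-DRB1 and IFI6 had log2 differences of -0.15, -0.19, 0.03, 0.02 and 0.05 between circPRE2 and circPRE8, none past the threshold. The 95% intervals were -0.30 to 0.01 for SEMA3A, -0.37 to -0.01 for SAMD5, -0.14 to 0.21 for AC080038.1, -0.27 to 0.30 for HLA-DRB1 and -0.28 to 0.38 for IFI6. DNER (-1.18), NEBL (-0.54), F10 (-0.52) and DKK1 (-0.24) were lower in circPRE2 than in circPRE8, and KRT23 (0.66), ITGB8 (0.63) and NGFR (0.37) were higher. Among falls, S100A14 (1.32), MAL2 (2.09) and EREG (1.19) were lower than in parental sgNORAD but higher than in circPRE8 sgNORAD, with S100A14 at 13.7 and 13.5 RPKM and EREG at 49.3 and 42.1 RPKM in circPRE8 sgNORAD.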

How the data were processed

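The table that the authors deposited holds RPKM for 8 poly(A) libraries. Build hg38, the aligner STAR, featureCounts 1.6.0 and edgeR 3.24.0 are named per the submitters' processing notes; for annotation, strand use and filters the sources used here give nothing. Gene identifiers were matched without version to GENCODE 29 (19379 of 19411), 27 date-like symbols were restored, and 0 columns were left unused. Scaling sizes came from low RPKM steps, where 82.6% to 83.6% of values per library were whole within 0.1 read. RPKM do not carry the counting error; 1 read in a 1 kb gene stood for 0.0199 to 0.0352 RPKM.

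The filter was 0.5 RPKM in 2 or more of the 8 libraries, and genes past it were tested as log2(RPKM + 0.1) with limma 3.58.1 in R 4.3.3, 1 coefficient per group over all 8 libraries, an intensity trend and Benjamini-Hochberg adjustment over 11585 genes (threshold 0.05; tested on simulated data). Fold changes are antilogs of that log2 difference and understate low genes. A paired design was not used: same-numbered libraries deviated together with r = 0.011 between circPRE2 sgNORAD and parental sgNORAD. Named genes were, past the threshold, the 15 largest rises and falls with at least 1 RPKM and groups not overlapping, the 5 largest differences in RPKM each way, up to 3 members per list, the 8 largest each way called against both other NORAD-guide groups, and members of family lists; further members were named after their values were seen. The members and the 42 gene lists were chosen with earlier results of these data known. Lists are described by counts and medians. Some genes are not reported here.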

Additional observations from a re-analysis of the deposited data

How the results depend on the processing

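The counts for circPRE2 sgNORAD against parental sgNORAD (1257 higher, 916 lower) were 19 and 4 when a log2 change of 0.5 had to be exceeded, 928 and 536 without the filter on low values and 980 and 484 without the intensity trend; the cause was not tested. With a single library left out they ranged between 479 and 1245 higher and between 239 and 1115 lower; without circPRE2 sgNORAD replicate 1 they were 479 and 239. They were 735 and 490 without circPRE2 sgNORAD replicate 2, and 1034 and 402 without parental sgNORAD replicate 1. Against circPRE8 sgNORAD (2975 and 2081) the counts were 106 and 60 past a log2 change of 0.5, and ranged between 1884 and 3244 higher and between 1289 and 2241 lower with a library left out. The fit with a replicate block gave 1283 higher and 946 lower against parental sgNORAD; the labels' numbers share only a number, as their deviations did not go together (r -0.173 to 0.211 between pairs of groups). Other pseudocounts, the 1 RPKM filter, other scalings and the fit of the 4 libraries alone kept these counts within 1.5 times. Of 160 named genes that passed, 83 kept their call under every alternative counted. The call against a log2 change of 0.5 was left out of that count. The 1 RPKM filter tested 146 of the 160, and the genes it removed were not counted as lost there. None of the 160 changed direction. The small number of libraries, 2 per group, limits all precision.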

Other observations

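The genes in these 2 paragraphs were chosen after their values were seen. The cardiac myosin heavy chain gene MYH6 had 0.341 and 0.287 RPKM in circPRE2 sgNORAD against 0.977 and 0.814 RPKM in parental sgNORAD (log2 change -1.26, limma adjusted p = 0.0176), MYH7 had 0.387 and 0.28 RPKM in circPRE2 sgNORAD against 0.882 and 0.693 RPKM in parental sgNORAD (-1.04), and the light chain gene MYL2 had 0.238 and 0.234 RPKM in circPRE2 sgNORAD against 0.465 and 0.45 RPKM in parental sgNORAD (-0.73). MYH6 and MYH7 are near-identical neighbours that may share reads. The MYL2 values given were all under the 0.5 RPKM filter, which that gene passed only through circPRE8 sgNORAD or parental sgControl libraries. None of the 3 passed without the filter or without the intensity trend. MYL2 also did not pass with a pseudocount of 1 RPKM (limma adjusted p = 0.0792). Each of the 3 lost its call when a circPRE2 library was left out, MYH6 with an adjusted p of 0.0603 and 0.0758, MYH7 at 0.0824 without replicate 2 and MYL2 at 0.119 and 0.103. Without parental sgNORAD replicate 1 the adjusted p values were 0.0769, 0.0749 and 0.0975, and MYL2 had 0.0607 without parental sgNORAD replicate 2.

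The MHC class II alpha chain gene HLA-DRA had 1.65 and 1.57 RPKM in circPRE2 sgNORAD against 0.566 and 0.967 RPKM in parental sgNORAD (1.02, limma adjusted p = 0.00321), and 2.39 and 2.56 RPKM in circPRE8 sgNORAD. The membrane-associated protein gene BASP1 had 0.524 and 0.602 RPKM in circPRE2 sgNORAD against 0.0328 and 0.0306 RPKM in parental sgNORAD, and the circPRE8 sgNORAD libraries differed from each other, at 0.605 and 0.0473 RPKM. BASP1 did not pass without circPRE2 sgNORAD replicate 1 (adjusted p = 0.0518) or replicate 2 (0.0508).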
